A study of Mus musculus with 5 samples.

Results

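The 43 genes described here encode members of the nuclear receptor family of transcription factors, without the retinoic acid receptors. Their regions were taken from ATAC-seq, in which a transposase cuts and tags open chromatin, on the anterior forelimb pairs of 5 mouse embryos, each genotyped and used singly at E11.5 (40 to 48 somites), with 50K cells a library. The 2 control embryos had the genotype Prx+/+;Smarcc1c/c and the 3 mutant embryos PrxCre/+;Smarcc1c/c, so all 5 carried 2 conditional copies of Smarcc1 and the mutants alone carried the Cre. The product of Smarcc1, BAF155, forms part of the core of BAF, a SWI/SNF remodeller that moves nucleosomes, and Prx-Cre acts in limb mesenchyme, so ectoderm, vessels and blood in the sample keep the gene. The files are peak lists, 1 per embryo. A measurement is thus whether a library has a called peak in a region, and the authors' fold enrichment of that peak over the background of its own list. Peaks of the 5 lists that shared at least 1 bp were merged into 86713 regions, and 534 of these lay in or within 50 kb of the body of a member gene in mm10. All 43 members had at least 1 region (median 10, at most 46, at Rxra). The windows of Thra and Nr1d1 overlap and shared 22 regions, and those of Nr5a1 and Nr6a1 shared 19. A window also takes in neighbouring genes: the nearest gene end was a member's own for 310 of the 534 regions. At the edge of the window, a region 49.9 kb from Rxrg had folds of 3.10, 3.24 and 3.78 in control 2, mutant 1 and mutant 2, and a region 50.0 kb from Rxrb, just outside, had folds of 5.55, 10.5, 5.25, 5.75 and 3.87 in controls 1 and 2 and mutants 1, 2 and 3.

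Nuclear receptors share a DNA-binding domain of zinc fingers and a ligand-binding domain, and many switch between corepressors and coactivators when a hormone, vitamin or lipid binds. Corepressor complexes carry histone deacetylases and coactivators carry acetyltransferases, and steroid receptors are known to recruit BAF to chromatin. In limb buds the COUP-TF genes Nr2f1 and Nr2f2 mark mesenchyme, retinoid X receptors are partners of many other receptors, and thyroid hormone, vitamin D and estrogen related receptors act later in cartilage and bone.

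Lists of the mutants were shorter than those of the controls over the whole genome, with 27194 to 42794 peaks against 60333 and 68959 on chromosomes 1 to 19 and X, and the lowest fold of a list, over all 5, ranged from 2.29 to 2.52. The number of reads behind a list is unknown, and chromatin without a called peak may be open below that fold. At Smarcc1 the gene-end region held a peak in all 5 libraries, a position that says nothing of the deletion itself. Of 5 limb mesenchyme markers with a start site in the reference table, all 5 had a start-site peak in both controls and 4 in every library. The tissue is mixed, and fewer cells of a type and less open chromatin per cell cannot be told apart.

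At nuclear receptor genes some regions of the controls lacked a peak in every mutant, at a lower share than over the genome. Both controls held a peak at 267 of the 534 regions. Of these, 49 (18.4%, 95% exact binomial interval 13.9% to 23.5%) had no peak in any mutant, beside 30.4% of the 45158 such regions of the whole series. Another 34 held a peak in 1 mutant, 46 in 2 and 138 (51.7%) in all 3, where the series had 43.4% in all 3. By class, 60 of 169 distal regions (35.5%, beside 26.4%) and 78 of 98 gene-end regions (79.6%, beside 81.3%) were in all 3. Distal regions, more than 1 kb from either end of any protein-coding gene, made up 47 of the 49 (95.9%, near the 95.3% of absent regions in the series): 27.8% of 169 were absent (21.2% to 35.2%), beside 42.0% in the series. Gene-end regions, within 1 kb of an end, were absent in 2 of 98 cases (2.04%, 0.248% to 7.18%), beside 4.64%. Regions of a gene are neighbours and not independent, so these intervals cover counting error only. Regions of the same strength in the controls and the same class over the genome were absent in 26.9%, a gap of -8.594 percentage points for the members that shrank to -2.946 with lists of equal length and to -2.562 within gene bodies. Both shares depend on the length of the lists: with every list shortened to 27194 peaks, 18 of 154 member regions (11.7%) were absent, beside 13.4% in the series. With a single control as the reference the member share was 29.2% without control 1 and 36.9% without control 2, beside 41.0% and 47.8%. Without control 1 the gene-end share was 7.21% (beside 9.71% in the series) and without control 2 it was 5.46% (beside 11.99%). The distal share was 49.0% without control 2, beside 58.9%.

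Counted in each library, member regions with a peak numbered 385 in control 1, 318 in control 2, 231 in mutant 1, 308 in mutant 2 and 161 in mutant 3. Mutant 2 stood close to control 2, and mutant 3 was lowest. The means were 351.5 ± 47.4 in the controls, against 233.3 ± 73.5 in mutants (SD, n = 2 and 3, exact two-sided permutation p = 0.2, the smallest that 2 against 3 libraries allow). Distal regions numbered 276 and 210 in the controls, against 129, 189 and 79 in mutants (exact permutation p = 0.2, n = 2 and 3), with no overlap of the groups in the full lists. All distal regions of the series separated the same way, at 49665 and 41301 in the controls, against 18896, 24042 and 11785 in mutants. The separation is thus not particular to the members. With every list at the length of the shortest, the distal difference of the members, -110.7, shrank to -5 (exact permutation p = 0.8, n = 2 and 3). Gene-end regions numbered 109 and 108 in the controls, against 102, 119 and 82 in mutants (exact permutation p = 0.8, n = 2 and 3), and mutant 2 lay above both controls. As a share of all regions of a library, members made up 0.590% and 0.564% in the controls, against 0.713%, 0.793% and 0.681% in mutants (exact permutation p = 0.2, n = 2 and 3), each mutant above both controls. This difference of 0.152 percentage points was 0.0542 with lists of equal length (exact permutation p = 0.2, n = 2 and 3) and 0.0536 where −log10 q had to reach 10 (exact permutation p = 0.6, n = 2 and 3). It was 0.00629 within gene bodies and 0.0167 where the nearest gene end was a member's (exact permutation p = 0.8 for each, n = 2 and 3), so the separation ended there. With lists of equal length the direction of the total turned, and the mutants held 2.33 more member regions than the controls on average (exact permutation p = 0.8, n = 2 and 3). Gene-end regions then numbered 7.33 more in the mutants (exact permutation p = 0.4, n = 2 and 3), and without mutant 3 they numbered 2 more in the full lists (exact permutation p = 1, n = 2 and 2). Among 7 such measures no adjusted p was under 0.467 (Benjamini-Hochberg on exact permutation p).

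**Figure D1:**
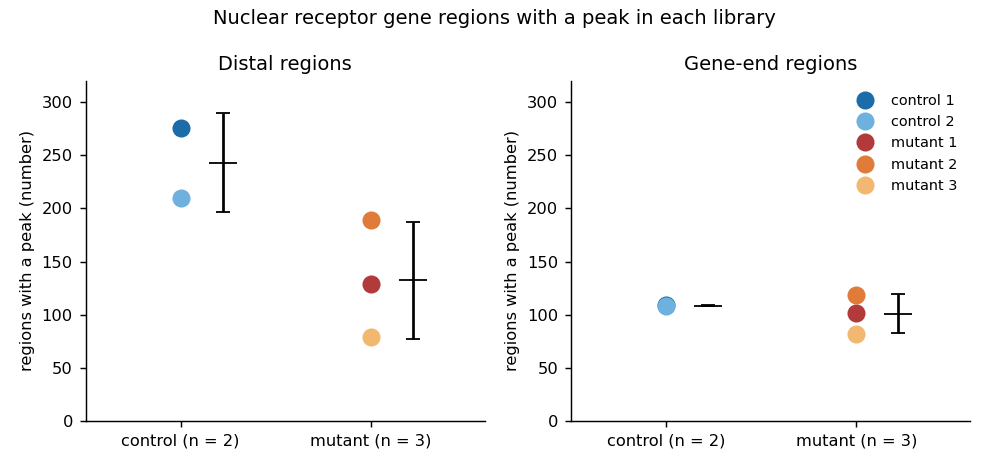
Number of nuclear receptor gene regions with a peak (vertical axis) in each of the 2 control and 3 mutant libraries, as points, for distal (left) and gene-end (right) regions. Bars show the mean ± SD. In the full lists the distal numbers of the mutants (79 to 189) lie below both controls (210 and 276), while gene-end numbers (82 to 119) span the controls (108 and 109). Distal regions of the whole series, not shown, separate the same way (11785 to 24042 in mutants, 41301 and 49665 in controls).

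Start sites with a peak in both controls rarely lacked one in every mutant, at nuclear receptor genes as over all genes. Start-site windows of RefSeq (GRCm38.p6, 250 bases before to 50 after a start) were found for 39 members, and Thra, Nr3c1, Nr5a1 and Hnf4g had none. For each gene the start with peaks in the most libraries was used, which passes over a start lost in mutants where another was kept. A peak of all 5 libraries covered the start of 26 members (66.7%), beside 56.9% of 17274 protein-coding genes. Another 5 starts (Rxra, Rxrg, Esrrb, Nr0b1 and Nr2e1) had peaks in some libraries, and 8 (Hnf4a, Nr0b2, Nr1h4, Nr1i2, Nr1i3, Nr2e3, Nr2f2 and Nr5a2) had none. Of the 30 members with a start peak in both controls, 0 lacked it in every mutant, close to the 1.66% of 10792 genes. Numbers of member starts with a peak were 31 and 30 in the controls, against 28, 31 and 26 in mutants (exact permutation p = 0.6, n = 2 and 3).

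Sequences before 5 of these starts are shown because they differ in the feature that goes with a start peak, the CG dinucleotide, which is printed in capitals; each runs 5′ to 3′ on the strand of the gene, in GRCm38.p6, and ends 1 base before the start. Nr1d2 had the strongest start peak of the family and Esrrg kept a peak at a start inside its body. Nr2e1 had a start peak in control 1 and mutant 2, and the starts of Nr2f2 and Hnf4a had none. For Nr2f2 the reference table gave no other start, and a broad region inside the gene, described below, held a peak in every library.
Nr1d2, chr14:18239107-18239356, minus strand: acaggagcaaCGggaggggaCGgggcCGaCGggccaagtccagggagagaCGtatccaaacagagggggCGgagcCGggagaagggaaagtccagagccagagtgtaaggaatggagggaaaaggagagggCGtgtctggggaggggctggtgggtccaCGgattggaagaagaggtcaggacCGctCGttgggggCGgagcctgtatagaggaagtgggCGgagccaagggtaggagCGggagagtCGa
Esrrg, chr1:187997577-187997826, plus strand: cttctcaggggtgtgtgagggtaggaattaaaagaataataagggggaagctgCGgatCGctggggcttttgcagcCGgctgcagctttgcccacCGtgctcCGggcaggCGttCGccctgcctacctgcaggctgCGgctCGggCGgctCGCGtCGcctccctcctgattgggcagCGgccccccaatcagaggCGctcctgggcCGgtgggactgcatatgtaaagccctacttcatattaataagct
Nr2e1, chr10:42583591-42583840, minus strand: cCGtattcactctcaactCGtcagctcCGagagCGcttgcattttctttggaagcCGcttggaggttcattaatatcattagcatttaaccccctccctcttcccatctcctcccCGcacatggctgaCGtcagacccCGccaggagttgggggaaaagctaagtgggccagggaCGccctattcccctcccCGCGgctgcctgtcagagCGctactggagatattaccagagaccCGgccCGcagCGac
Nr2f2, chr7:70366747-70366996, minus strand: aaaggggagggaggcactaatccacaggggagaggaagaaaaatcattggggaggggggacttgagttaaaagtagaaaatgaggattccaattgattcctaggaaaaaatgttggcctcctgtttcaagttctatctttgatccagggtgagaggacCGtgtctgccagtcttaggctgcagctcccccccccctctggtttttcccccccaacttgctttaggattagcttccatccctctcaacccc
Hnf4a, chr2:163506607-163506856, plus strand: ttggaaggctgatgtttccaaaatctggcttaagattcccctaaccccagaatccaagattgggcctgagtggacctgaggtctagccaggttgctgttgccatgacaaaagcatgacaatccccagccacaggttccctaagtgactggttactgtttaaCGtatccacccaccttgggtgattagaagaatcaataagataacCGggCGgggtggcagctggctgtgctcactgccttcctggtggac

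These stretches held 15 CG pairs before Nr1d2, 16 before Esrrg, 15 before Nr2e1, 1 before Nr2f2 and 3 before Hnf4a. Over the 26 members with a start peak in every library, the median ratio of observed to expected CG was 0.752 (0.283 to 1.14), and over the 8 with none it was 0.179 (0.0640 to 0.431). All protein-coding genes showed the same order, with medians of 0.763 and 0.164, so the relation is not particular to these genes. The hexamer AGGTCA, the core element of many nuclear receptors, was searched on both strands of the 250 bases and found in 10 of 56 member windows (17.9%), beside 12.8% of 21045 windows of all genes. It lies before Nr1d2, as printed, and before Thrb and Pparg among others. The palindrome TGACGTCA, the element of CREB factors, was found in 1 member window, that of Nr2e1 printed above, and in 1.94% of all windows. CACGTG, the E-box form that CLOCK and its partners bind and a case of CANNTG, was found before Esr2, Nr0b2, Nr1i3 and Thrb (7.14% of member and 6.70% of all windows), CANNTG in 69.6% and 62.8%, and GGGCGG, the GC box, in 42.9% and 43.1%.

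The strongest start peak was that of Nr1d2, which encodes the circadian repressor REV-ERB beta, with folds of 15.1 and 16.7 in controls 1 and 2, against 13.4, 13.6 and 15.0 in mutants 1, 2 and 3. Next came Nr2c2, an orphan receptor also called TR4, with 13.2 and 11.7 in the controls, against 8.95, 14.0 and 8.58 in the mutants. Folds are the authors' values within each list and are not scaled between libraries, so they describe rank within a list. To set the libraries side by side, the 78 gene-end and 60 distal member regions with a peak in every library were ranked among the 19579 such regions of the series. The median percentile of the gene-end regions was 57.9 and 55.9 in the controls, against 60.6, 59.0 and 55.1 in mutants (exact permutation p = 0.6, n = 2 and 3). For the distal regions it was 35.1 and 27.8 in the controls, against 33.1, 32.5 and 27.9 in mutants (exact permutation p = 1, n = 2 and 3). The groups overlapped in both cases, and for the gene-end regions the difference of 1.33 turned to -0.61 where a −log10 q of at least 10 was required (exact permutation p = 1, n = 2 and 3). It was 2.70 at a −log10 q of at least 5, 5.32 within gene bodies and 8.84 where the nearest gene end was a member's (exact permutation p = 0.2 for each, the smallest possible, n = 2 and 3).

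**Figure D2:**
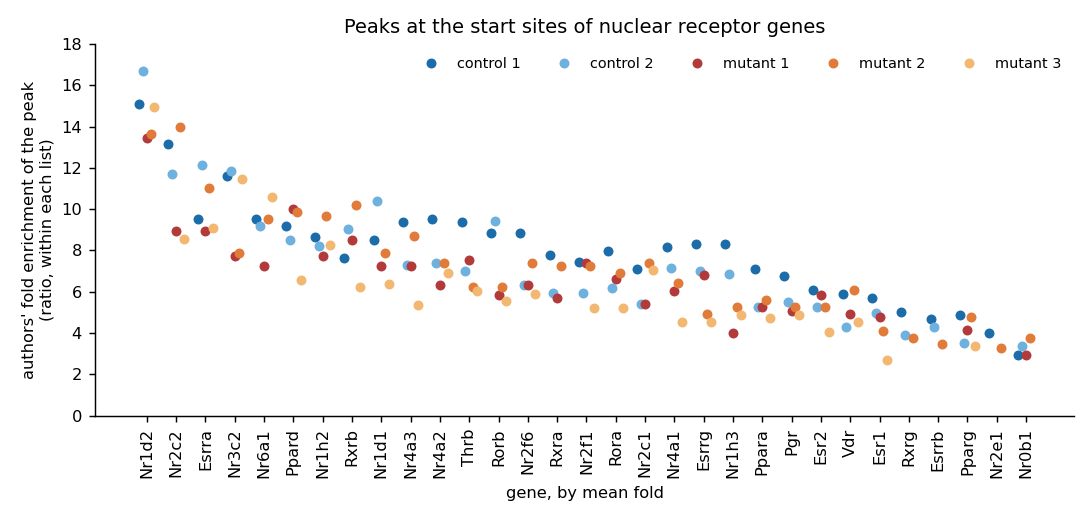
Authors' fold enrichment (vertical axis, a ratio within each list) of the peak at the start site of 31 nuclear receptor genes (horizontal axis, ordered by mean fold), with 1 point per library and no point where a library had no peak. Nr1d2 stands highest with folds of 13.4 to 16.7, and Rxrg, Esrrb and Nr2e1 at the low end lack points of mutants 1 and 3.

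Receptor subgroups differed in how many of their control regions the mutants lacked. The estrogen related receptors had 12 of 27 absent (44.4%), where regions of like strength and class over the genome had 34.4%. The thyroid hormone, vitamin D and circadian receptors had 17 of 54 absent (31.5% beside 32.1%) and the steroid receptors 4 of 14 (28.6% beside 25.8%), both near the genome's share. COUP-TF and other NR2 orphan receptors had 7 of 37 absent (18.9% beside 24.3%) and retinoid X receptors 4 of 32 (12.5% beside 36.0%). Low shares stood at the NR5, NR6 and NR0 genes (2 of 23, 8.70% beside 19.3%), the NR4A genes (1 of 23, 4.35% beside 24.6%) and the receptors for lipids, bile acids and xenobiotics (2 of 57, 3.51% beside 19.5%). No test was made between subgroups. With lists of equal length the share was 4.55% for the NR2 orphans (1 of 22), 10% for the steroid (1 of 10), 21.4% for the thyroid (6 of 28) and 8.33% for the retinoid X receptors (1 of 12). At a −log10 q of at least 10 it was 15.2% for the lipid group (5 of 33) and 25% for the retinoid X receptors (3 of 12). Leaving out 1 library moved these shares to 44.4% to 55.0% for the estrogen related receptors and to 3.51% to 21.3% for the lipid group, whose upper values came without control 1 (15.5%) and control 2 (21.3%). The ranges were 12.5% to 35.9% for retinoid X receptors, 4.35% to 23.5% for NR4A and 8.70% to 27.8% for NR5, NR6 and NR0, highest without control 2 in each. They were 18.9% to 39.2% for the NR2 orphans, highest without control 1. For the thyroid and the steroid group they were 31.5% to 50.6% and 28.6% to 52.2%, highest without control 2. The share of the whole series, 30.4%, also rose, to 41.0% without control 1 and to 47.8% without control 2. It fell to 13.4% with equal lists and to 23.9% under the q limit above, where the lipid and retinoid X shares rose. Whether a subgroup moved more than the series was not tested.

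**Figure D3:**
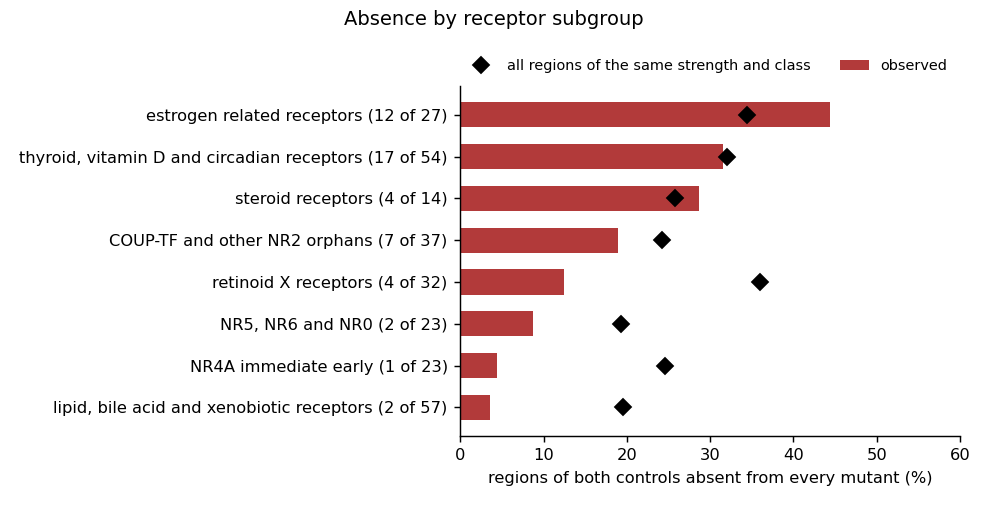
Share of regions of both controls with no peak in any mutant (bars, percent) for the 8 receptor subgroups, with the absent and total regions in brackets, and the share of all regions of the series with the same strength decile and class (diamonds). The bar of the estrogen related receptors (44.4%) lies above its diamond (34.4%), and that of the lipid, bile acid and xenobiotic group (3.51%) lies below (19.5%).

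Among receptors of thyroid hormone, vitamin D and the clock, Rora had the most absent regions. This gene, whose receptor ROR alpha competes with REV-ERB for the same sites, spans chr9:68653404-69388246. Both controls held 17 regions there, of which 9 were absent from every mutant, 3 were in 1 mutant, 1 in 2 and 4 in all. From regions of like strength and class 6.39 would be absent. All 9 were among its 15 distal regions of both controls, where 50.5% of distal regions in long genes were absent over the series. Over both classes the absent count was 19 of 27 without control 2, and 4 of 8 with lists of equal length, beside 47.8% and 13.4% in the series. All 9 absent regions lay inside the gene, 39.6 to 302.9 kb from its ends. The strongest of them (chr9:69347662-69348696) had folds of 6.24 and 5.12 in controls 1 and 2, and another (chr9:68942492-68943035) had 5.20 and 5.52. In contrast the start region (chr9:68653039-68654275) had folds of 7.98 and 6.20 in the controls, against 6.63, 6.90 and 5.21 in the mutants. One region deep in the body (chr9:69289249-69291331) also held a peak throughout, with 7.63 and 5.66 in the controls, against 3.55, 5.26 and 4.04 in the mutants. Rorb, its neural and bone paralog, had 3 of 4 absent, with folds of 3.37 to 4.72 in the controls, and its start region (chr19:19110061-19112240) was in every library. Like regions would give 1.40 absent at Rorb. Inside that gene 1 of 2 regions was absent, as was 1 of the 2 whose nearest gene end was a member's.

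Thra and Nr1d1, which encode thyroid hormone receptor alpha and REV-ERB alpha, overlap at their ends on chromosome 11 and shared 18 regions of both controls, so their counts are not independent. Thra had 3 of 19 and Nr1d1 3 of 18 absent, the same 3 regions. The strongest (chr11:98747031-98747650), inside Thra 6.26 kb from its end, had folds of 5.55 and 5.52 in controls. The Nr1d1 start region (chr11:98773381-98776357) had 8.50 and 10.4 in the controls, against 7.25, 7.88 and 6.39 in the mutants, and a distal region beyond it (chr11:98782637-98784027) had 8.67 and 8.08 in the controls, against 4.94, 7.55 and 3.53 in the mutants. Both were thus present in all 5 libraries. Thrb, the other thyroid hormone receptor, had 1 of 3 absent and Vdr, the vitamin D receptor, 1 of 9, and both Nr1d2 regions were in every mutant. The start region of Vdr (chr15:97907638-97908913) had folds of 5.90 and 4.31 in the controls, against 4.94, 6.08 and 4.54 in the mutants.

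Estrogen related receptors are orphan regulators of energy metabolism, and absence lay in Esrrg and Esrrb, with none at Esrra. Esrrg (chr1:187608510-188214885) had 9 of 15 regions absent, 2 in 1 mutant, 1 in 2 and 3 in all. Like regions would give 6.18 absent. All 9 were distal and 7 of them lay inside the gene, where 50.5% of distal regions in long genes were absent over the series. The count was 15 of 21 without control 2 and 4 of 6 with lists of equal length, beside 47.8% and 13.4% in the series. All 3 kept regions covered start sites: the first start (chr1:187608996-187610086) had folds of 4.33 and 3.91 in the controls, against 3.70, 4.60 and 4.37 in the mutants, and a start within the body (chr1:187997460-187998227), printed above, had 8.32 and 7.01 in the controls, against 6.79, 4.93 and 4.54 in the mutants. The remaining start region (chr1:187651626-187652673) had folds of 3.23 to 4.76 over the 5 libraries. None of the 9 absent regions covered a start site. The strongest absent region (chr1:188146294-188147575) had 7.11 and 4.58 in controls, and a stronger one (chr1:187807341-187808745), with 10.1 and 6.20, held a peak in mutant 1 alone, with 3.09. Esrrb, known from pluripotent cells, had 3 of 5 absent and none in all mutants, and its best start had folds of 4.68 and 4.31 in the controls and 3.45 in mutant 2 alone of the mutants. At Esrra the start peak had folds of 9.54 and 12.1 in the controls, against 8.95, 11.0 and 9.08 in the mutants. Esrra had all 7 of its regions in all mutants, and 6 of these were gene-end regions in a stretch of close neighbours: the nearest gene end was its own for only 1 of its 15 regions.

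**Figure D4:**
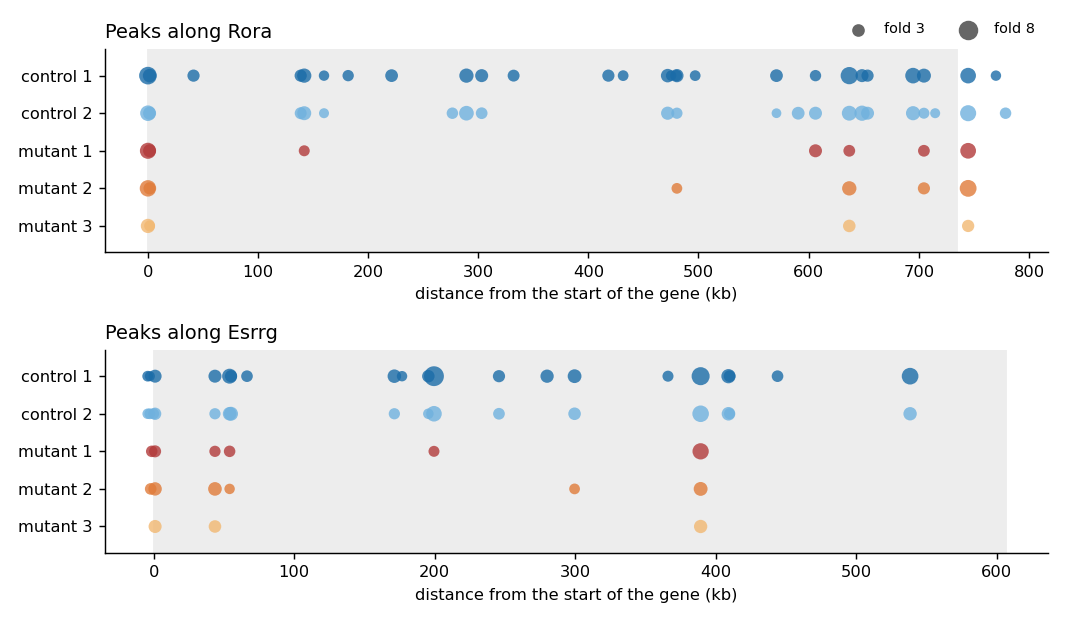
Peaks within 50 kb of Rora (top) and Esrrg (bottom) by distance from the start of the gene (horizontal axis, kb), 1 row per library, with the gene body shaded and point area proportional to the authors' fold. Both controls have peaks along the body, while the mutants have peaks at the start, at a few positions inside and, for Rora, beyond the end of the gene.

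Steroid receptor genes had few regions. Esr1, estrogen receptor alpha, had 2 of 5 absent, of which the stronger (chr10:5008751-5009546), 3.12 kb past an end of the gene, had folds of 5.90 and 5.26 in controls. Its start region (chr10:4610944-4612105) had 5.72 and 4.99 in the controls, against 4.78, 4.11 and 2.69 in the mutants. Nr3c2, the mineralocorticoid receptor, had 2 of 3 absent, both inside the gene, and a start region (chr8:76898779-76902651) with 11.6 and 11.9 in the controls, against 7.71, 7.88 and 11.4 in the mutants. At Nr3c1, the glucocorticoid receptor, the 1 region (chr18:39488741-39491953) had 8.50 and 6.60 in the controls, against 7.87, 7.06 and 6.22 in the mutants. The estrogen receptor beta gene Esr2 had 3 of 4 regions in all mutants and the progesterone receptor gene Pgr its only 1. All 4 absent regions of the group were distal, and the 4 genes with a start window (Esr1, Esr2, Nr3c2 and Pgr) each had a start peak in all 5 libraries.

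Retinoid X receptors, partners of many other receptors, showed partial presence. Rxra (chr2:27676445-27763319), with 18 regions in both controls, had 3 absent, 7 in 1 mutant, 4 in 2 and 4 in all 3. Like regions would give 6.94 absent. Without control 1 the absent count was 9 of 23, without control 2 12 of 30 and without mutant 2 8 of 18. The absent share of the series was 41.0%, 47.8% and 36.4% in the same steps. Mutant 3 lacked most of the 18 regions: it held 4, where mutant 1 held 10 and mutant 2 held 13. Of all regions of both controls in the series, mutant 3 held 48.2%, mutant 1 60.9% and mutant 2 61.4%. The Rxra start region (chr2:27675805-27677179) had folds of 7.80 and 5.93 in the controls, against 5.71 and 7.23 in mutants 1 and 2, with no peak in mutant 3. Rxrb had 1 of 8 absent and Rxrg, found in muscle and neurons, 0 of 6. The start region of Rxrg (chr1:167597765-167598932) held a peak in both controls and mutant 2 only (5.03, 3.91 and 3.78).

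COUP-TF genes, which are expressed in limb mesenchyme, had both kept and absent regions near the gene. Nr2f1 (chr13:78188971-78198873) had 4 of 8 regions in all mutants and 2 absent. Its start region (chr13:78197471-78199833) had folds of 7.46 and 5.93 in the controls, against 7.41, 7.23 and 5.21 in the mutants, and a region 2.76 kb beyond (chr13:78201636-78202375) had 6.42 and 5.26 in the controls, against 7.87, 6.73 and 5.72 in the mutants. Both were present in all 5 libraries. The strongest absent region of all members lay 14.1 kb from Nr2f1 (chr13:78212996-78213621), with 5.72 and 5.79 in controls. Nr2f2 (chr7:70351946-70366746) had 4 of 9 in all mutants and 2 absent. A broad region of 4829 bp inside Nr2f2 (chr7:70357777-70362605) had 9.19 and 8.62 in the controls, against 7.10, 10.5 and 7.23 in the mutants. Just inside the RefSeq start of Nr2f2, whose CG-poor sequence is printed above, a gene-end region of 415 bp (chr7:70366255-70366669) had 3.99 and 3.50 in the controls and was absent from all mutants. Of the other NR2 genes, Nr2f6 had 6 of 7, Nr2c2 4 of 5, Nr2c1 2 of 3 and Nr2e3 1 of 2 in all mutants, while Nr2e1, the neural receptor TLX, had 2 of 3 absent, at folds of 2.96 to 3.50 in controls, and none in all mutants.

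NR4A genes, the immediate early receptors Nur77, Nurr1 and NOR1, had 4 of the 6 strongest distal member regions of all 5 libraries in their windows. The second by strength lay 1.09 kb from Nr4a3 (chr4:48042472-48043984), with folds of 13.4 and 10.9 in the controls, against 11.6, 11.99 and 9.25 in the mutants. A region 6.71 kb from Nr4a1 (chr15:101245765-101247190) had 10.2 and 12.9 in the controls, against 9.57, 8.87 and 8.41 in the mutants. Inside Nr4a2, a region of 3802 bp (chr2:57114092-57117893) had 10.4 and 10.4 in the controls, against 10.2, 12.6 and 9.76 in the mutants. The fourth (chr15:101220531-101222441), in the window of Nr4a1 but nearest to an end of Grasp, had 9.02 and 9.03 in the controls, against 6.33, 8.87 and 6.22 in the mutants. The first 3 had a percentile of fold of 86.6 or higher in every list. Nr4a1 had 9 of 16 regions in all mutants and 1 absent, Nr4a2 3 of 4 and 0, and Nr4a3 3 of 3 and 0.

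Receptors for fatty acids, oxysterols, bile acids and xenobiotics lacked only 2 of 57 regions in every mutant. Ppard, the widely expressed fatty acid receptor, had 18 regions in both controls, of which 9 were in all mutants and 1 absent (chr17:28218225-28218515, folds 3.12 and 2.83). Its start region (chr17:28232089-28233713) had 9.19 and 8.49 in the controls, against 10.03, 9.85 and 6.56 in the mutants. Nr1h2, the oxysterol receptor LXR beta, had 7 of 10 in all mutants and 0 absent, with folds of 8.67 and 8.22 in the controls, against 7.71, 9.69 and 8.24 in mutants at its start. Ppara, another fatty acid receptor, had 4 of 8 in all mutants and 0 absent, and Nr1i3, the constitutive androstane receptor, had 5 of 6 and 0. Nr1h4, the bile acid receptor FXR, had 1 of 2 and 0. Hnf4a, Nr1h3 and Pparg had all of their regions (4, 4 and 2) in all mutants. The other absent region was a gene-end region of the xenobiotic receptor gene Nr1i2 (chr16:38248369-38249487), with folds of 4.85 and 3.91 in controls. Of the group's 57 regions, 30 were gene-end, and several windows lie in dense neighbourhoods: no region of Nr1h3 or Nr1i3 had the member's own end as the nearest. The strongest distal member region of all 5 libraries lay in the window of Nr1i3, nearest to an end of Adamts4 (chr1:171246511-171248446), with 11.6 and 13.7 in the controls, against 8.49, 11.0 and 8.75 in the mutants. Hnf4g had 1 region in all, with folds of 4.68 in control 1 and 2.79 in mutant 2.

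Among the NR5, NR6 and NR0 genes, Nr6a1, the germ cell nuclear factor that is active in early embryos, had 6 of 12 regions in all mutants and 2 absent. A region far inside Nr6a1, 99.4 kb from an end (chr2:38822757-38824671), had 9.36 and 11.9 in the controls, against 7.10, 7.72 and 6.22 in the mutants, and one 47.7 kb inside (chr2:38771105-38772048) had 8.84 and 8.08 in the controls, against 5.40, 4.76 and 3.70 in the mutants. Both absent regions lay outside Nr6a1, nearest to an end of Olfml2a. The Nr6a1 start peak had folds of 9.54 and 9.16 in the controls, against 7.25, 9.53 and 10.6 in the mutants. Nr5a1, the steroidogenic factor gene, had 5 of 8 in all mutants and 0 absent. Nr5a2 had 1 region in both controls, also in all mutants. Nr0b2, the corepressor-like receptor SHP, had 4 of 5 in all mutants, none of them nearest to its own end, and Nr0b1 had 1 region (2.95 and 3.37 in controls) that mutant 3 lacked.

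**Figure D5:**
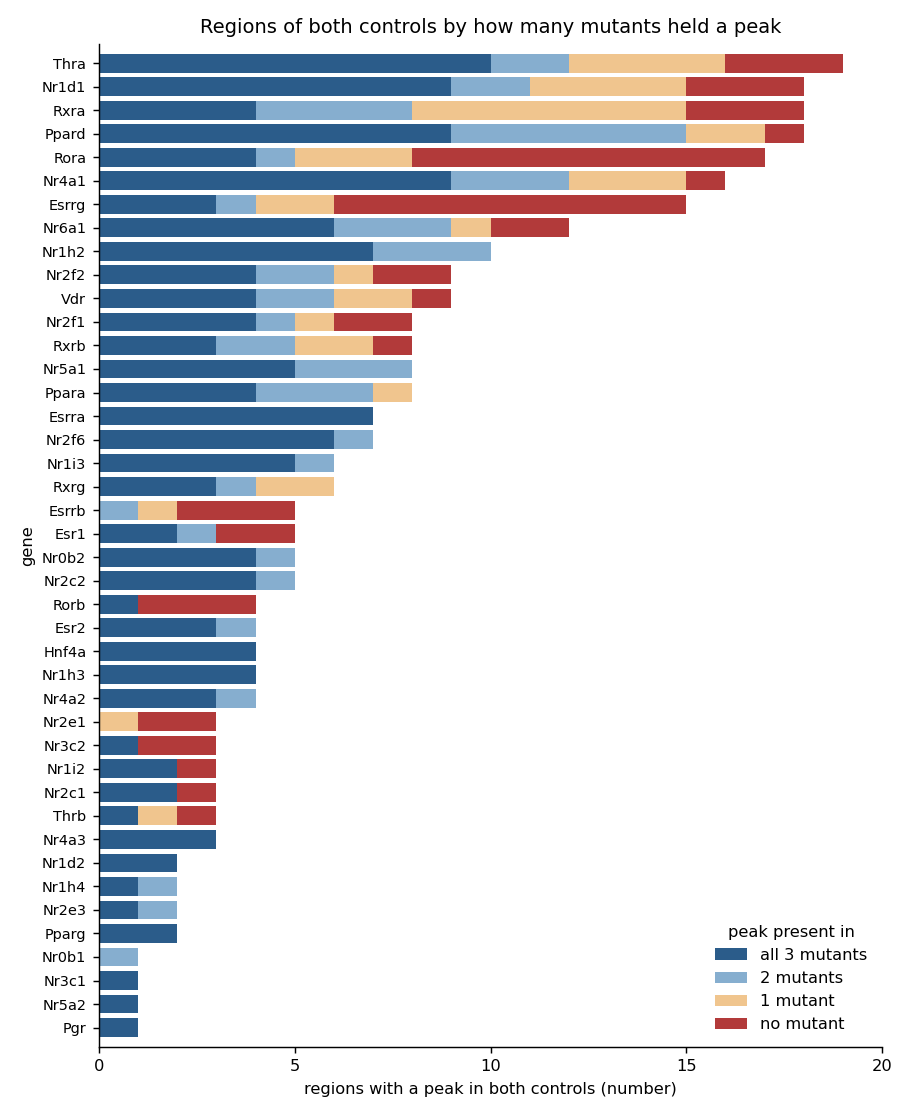
Number of regions with a peak in both controls (horizontal axis) for each of 42 nuclear receptor genes (vertical axis), split by how many of the 3 mutants also held a peak. Rora and Esrrg have the most regions without a mutant peak (9 each), and Esrra (7), Hnf4a and Nr1h3 (4 each) are present in all 3 mutants throughout.

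Single gene counts rest on both controls, and leaving out a control also adds regions. Without control 2 the absent count was 7 of 15 at Vdr (1 of 9 with it) and 7 of 25 at Ppard (1 of 18). It was 5 of 21 at Nr4a1 (1 of 16) and 7 of 18 at Nr6a1 (2 of 12). At Rorb it was 6 of 7 (3 of 4) and at Esrrb 6 of 9 (3 of 5). The absent share of the series rose from 30.4% to 47.8% in the same step. Without mutant 2 the count was 6 of 19 at Thra and 6 of 18 at Nr1d1 (3 at each with it), and the series had 36.4%. Esrra, Hnf4a, Nr1h2, Nr1h3, Nr1d2, Nr4a3 and Pparg, with 0 absent, had 1 or 2 when control 1 or control 2 was left out. Over all members, 20 of 42 genes with a region in both controls had an absent one, 22 had none and 9 had every region in all mutants. Rora and Esrrg together held 18 of the 49 absent regions. Without them the share was 13.2% over all regions and 20.7% over distal regions. The length of the host gene went with absence, a split made after the values were seen: of 52 distal regions inside any gene of at least 100 kb, 25 (48.1%) were absent, beside 50.5% of the 8983 such regions of the series. Inside shorter genes 8 of 57 (14.0%) were absent, beside 27.6%, and outside genes 14 of 60 (23.3%), beside 43.9%. Within long genes the members thus stood near the series share for long genes, and below the matching share elsewhere. Regions of like strength and class, whatever their host gene, had 38.2%, 41.1% and 38.9% absent. Beside those, the members stood above within long genes and below elsewhere. By gene, Spearman's rho between length and absent share was 0.46 over the 38 members with at least 2 regions of both controls. It is given as a description, since windows overlap and all members share the same 5 libraries. Nr6a1, at 203.1 kb, is a long gene with none of its 6 body regions absent.

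Absent distal regions were weaker, narrower and farther from the nearest gene end than those in all mutants. The medians were 598 and 1144.5 bp of length, 42.0 and 74.8 for the percentile of fold within the control lists, and 28.8 and 5.82 kb for the distance (47 and 60 regions). A merged region spans the peaks of every library that has it. Regions in all mutants thus join peaks of more libraries than absent ones, so the difference in length follows in part from the definition. Of the 47 absent regions 14 lay outside genes, and of the 60 kept ones 25 did. The series showed the same order, with medians of 39.7 and 74.0 for strength and 44.0 and 13.3 kb for distance. None of the 32 distal member regions above the 75th percentile was absent, beside 8.74% of such regions in the series, and 8 of 18 (44.4%) were absent at or below the 25th, beside 71.1%. Regions whose nearest gene end was a member's own were absent in 38 of 146 cases (26.0%), and those nearest to another gene's end in 11 of 121 (9.09%), where the series had 30.4%. Like regions had 31.4% and 21.6%, and the classes differ, since 38 of the 146 and 60 of the 121 were gene-end. Among distal regions alone the shares were 33.3% (36 of 108, like regions 40.5%) and 18% (11 of 61, like regions 37.5%).

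No region of a nuclear receptor gene held a peak in all mutants and no control (0 of 534, a count that allows a share of up to 0.688% by the exact 95% interval), beside 0.0484% of all regions (42 of 86713). With lists of equal length the count was 5 of 288, beside 677 of 40887 (1.66%), and without mutant 3 it was 4 of 528, beside 440 of 86215 (0.510%). Mutant 2 had 73 member regions to itself, 13.7% of the 534, beside 8.03% of all regions. Their median fold was 3.12 and 13 were gene-end, with 9 each at Rxra and Ppard. Of the other libraries, control 1 had 91 (17.0% beside 19.7%), control 2 had 38 (7.12% beside 10.3%), mutant 1 had 14 (2.62% beside 2.3%) and mutant 3 had 6 (1.12% beside 0.787%). Of regions of both controls, mutants 1 and 2 held 73.4% and 74.2% of the members, beside 60.9% and 61.4% in the series, and mutant 3 held 54.7%, beside 48.2%. All 3 mutants stood above the share of the series.

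Genes that work with the receptors were treated the same way. Coregulators, the coactivators and corepressors that receptors recruit, had 36 of 135 regions of both controls absent (26.7%, where like regions had 30.0%), all of them distal. Ppargc1a, a coactivator of PPAR gamma and the estrogen related receptors, had 8 of 15. Clock genes, whose products share targets with REV-ERB and ROR, had 13 of 84 absent (15.5% beside 19.95%), with Arntl at 5 of 8. Genes of hormone and ligand metabolism had 15 of 63 absent (23.8% beside 27.4%), with Hsd11b2 at 4 of 16. None held a region in all mutants and no control. For the cell types of the limb bud the same share was 24.2% at limb mesenchyme markers (16 of 66, where like regions had 36.5%), 27.8% at ectoderm (5 of 18, beside 29.8%) and 37.5% at endothelium markers (9 of 24, beside 36.7%). It was 15.8% at blood (3 of 19, beside 28.1%), 37.5% at muscle precursor (6 of 16, beside 45.3%) and 15.0% at neural crest and glia markers (3 of 20, beside 32.4%), and the part of cell composition in the results was not tested.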

How the data were processed

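ATAC-seq peak lists of 5 embryos were used, 2 controls and 3 mutants. Reads were handled with bcl2fastq 2.20.0 and Bowtie2 2.3.5 and peaks came from MACS2, per the submitters' processing notes, on mm10. Not given in the sources used here are the version and options of MACS2, duplicate removal and any read shift for Tn5. Other settings could change which weak peaks are listed. Each list gives the authors' peak positions and summits, a display score, the fold enrichment (a ratio to the local background) and the −log10 p and −log10 q of each peak, as deposited, called per library. No read counts were given, so depth is unknown and folds are not scaled between lists.

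Peaks on chromosomes 1 to 19 and X were merged at 1 bp of overlap (a region's fold in a library is its highest peak), and regions in or within 50 kb of a member gene were taken with the gene positions of a RefSeq table of GRCm38.p6. "Absent" means a peak in both controls and in no mutant, "strength" the mean percentile of fold in the control lists, and the share of like regions comes from all regions of the same strength decile and class. The table gives no exons. Intervals are exact binomial at 95%. Tests over libraries are exact two-sided permutation tests in scipy 1.17.1 (Python 3.11.15), with Benjamini-Hochberg adjustment over 7 measures. Each library is 1 embryo, so the spread is between embryos. Library numbers follow accession order and pair nothing. Values per library are given for members with the most regions, the most absent regions or all regions kept, and for the 6 strongest absent and 6 strongest distal kept regions; other regions and start sites were picked after their values were seen, as were the sequences printed. Members and lists were chosen with earlier results of these data known. Merging and assignment were tested on simulated data. Alternatives were the q threshold, list length, merge overlap, window, gene-end distance, nearest gene and each library left out.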

Additional observations from a re-analysis of the deposited data

How the results depend on the processing

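Of the 267 regions of both controls, the absent share of 18.35% became 11.69% with lists of equal length, 26.13% within gene bodies alone, 26.03% where the nearest gene end was a member's, and 13.19% without Rora and Esrrg (chosen after seeing the data). With 1 library left out it ran from 18.35% to 36.87%, highest without control 2. The distal share of 27.81% became 37.88% at a −log10 q of at least 10, 36.49% within gene bodies and 20.71% without Rora and Esrrg, and ran from 27.81% to 48.95% with 1 library left out. The distal share of the series was 41.99% in the main setting, 45.78% at that q limit and 58.89% without control 2. The gene-end share of 2.041% became 0% with equal lists and 0% where a region had to contain a gene end, and ran from 2.041% to 7.207%. The difference in regions per library of -118.2 turned to 2.333 with equal lists and ran from -159.3 to -82 with 1 library left out. Gene-end regions per library turned from -7.5 to 7.333 with equal lists, and ran from -15.5 to 2 (without mutant 3) with 1 library left out. Regions in all mutants and no control went from 0 to 5 with equal lists, and ran from 0 to 4. The gap to like regions of -8.594 percentage points became -2.946 with equal lists and -2.562 within gene bodies, and ran from -9.91 to -6.923. The rank difference of gene-end regions of 1.335 turned to -0.6122 at a −log10 q of at least 10 and ran from 0.3087 to 4.47. Of 104 subgroup shares 15 moved, and of 468 counts of named genes 137 moved. Shares and counts have no sign, so a reversal was not possible for them. The alternatives with fewer peaks or libraries have fewer merged regions by construction. Leaving out a control instead adds regions to the reference (332 without control 1 and 396 without control 2), since a peak in a single control then suffices. Leaving out a mutant makes absence from every mutant easier to meet. Otherwise the cause was not tested. No paired analysis was possible because the labels give no replicate numbers. The calling limit of each list, in fold and in −log10 q, limits what absence means.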
